A study of Mus musculus with 6 samples.

Results

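The 9 genes described here are Notch ligands (Dll1, Dll4, Jag1), Notch receptors (Notch1, Notch2), fringe enzymes that modify the receptors (Lfng, Mfng) and targets of the pathway (Hes1, Nrarp), chosen by symbol from the 32285 genes of each count table. All 9 were found in the 6 single-cell RNA sequencing (scRNA-seq) libraries of mouse small intestinal organoids, collected on day 3 of growth. The organoids derive from adult mice. WT organoids were kept without EIPA (-EIPA, 2 libraries, which the labels give as DMSO) or with EIPA (+EIPA, 2 libraries), an inhibitor of Na+/H+ exchange, at 5 µM in the study's methods. Organoids that carry a Dox-inducible CRISPR-Cas9 vector with a guide to the gene the study targets and were selected with an antibiotic after lentiviral infection gave 1 library without Dox (-Dox) and 1 with Dox (+Dox), at 2 µg/mL in the methods. Live cells were sorted for every library, and the +Dox cells were also gated on GFP, which the vector expresses with Cas9. The gate, the Dox itself and the cutting by Cas9 therefore cannot be told apart in that pair, and with 1 library on each side it has no replicate check.

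Notch signals between neighbouring cells. A ligand on one cell binds a receptor on the next, the receptor is cut, and its freed part enters the nucleus, where with RBPJ it turns on targets such as Hes1. In the intestinal crypt, cells that receive the signal keep Hes1, which represses Atoh1, and stay stem cells or become absorptive cells, while cells that express Atoh1 enter the secretory lineage and carry Dll1 and Dll4. Fringe enzymes add sugars to the receptor and change how it responds to each ligand family, and Nrarp is a target that feeds back on the pathway.

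After cells with under 1000 genes or with 20% or more mitochondrial UMIs were left out, 87954 cells remained, 12083 to 18211 per library, with 161670015 to 239368573 UMIs (unique molecular identifiers, each a counted RNA molecule) per library. Any 2 libraries shared 33 to 78 of the kept barcodes, at most 0.563% of a library. Clusters were named from marker genes, and levels are given in ISC-like (stem) cells, secretory progenitor-like, Paneth-like, Goblet-like and enteroendocrine (EEC-like) cells, with enterocyte-like cells as the class outside the secretory lineage. Lgr5 averaged 150 CPM in ISC-like cells (CPM, a gene's UMIs scaled to a common total so that libraries and classes can be compared) and at most 82.0 CPM in any other class. Atoh1 averaged 47.2 CPM and Sox4 733 CPM in secretory progenitor-like cells, both below their mean in another class (113 and 886 CPM), so that class is named from its marker list and not from either gene alone. Muc2, a Goblet marker, averaged 1690 CPM in Paneth-like and 1542 CPM in Goblet-like cells, so Muc2 does not separate those classes. Defa24, a Paneth marker, averaged 140575 CPM in Paneth-like cells and at most 24635 CPM in any other class. So large a part of the total lowers the CPM of other genes in Paneth-like cells, and small differences from other classes carry that limit.

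Dll1 and Lfng were the ligand and the fringe gene with the highest level in secretory progenitor-like cells among the classes of that lineage, and the bases before their start sites were searched on both strands for the core of the RBPJ motif (TGGGAA) and for the E-box CAGCTG, a form of the motif that Atoh1 and related factors bind. The 250 bases before a start of each gene are printed from RefSeq (GRCm38.p6), in the direction of transcription, with every match in capitals. The Dll1 window is chr17:15376933-15377182 on the minus strand, before one of its 2 RefSeq starts, and the Lfng window is chr5:140607091-140607340 on the plus strand. The gene bodies are annotated at chr17:15367354-15376872 (11 exons) and chr5:140607320-140615545 (8 exons).
Dll1: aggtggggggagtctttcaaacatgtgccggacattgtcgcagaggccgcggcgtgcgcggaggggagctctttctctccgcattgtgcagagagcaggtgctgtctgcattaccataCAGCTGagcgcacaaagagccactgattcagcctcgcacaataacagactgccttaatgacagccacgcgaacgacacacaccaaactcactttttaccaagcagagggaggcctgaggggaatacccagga
Lfng: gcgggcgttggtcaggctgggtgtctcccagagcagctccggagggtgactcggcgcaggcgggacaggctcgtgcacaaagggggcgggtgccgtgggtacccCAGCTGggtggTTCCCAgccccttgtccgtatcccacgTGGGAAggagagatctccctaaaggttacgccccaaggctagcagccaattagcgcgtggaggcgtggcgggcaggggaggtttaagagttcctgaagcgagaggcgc
The Dll1 window held 1 CAGCTG, 132 bases before the start, and the window before its other start held neither motif. The Lfng window held 1 CAGCTG, 146 bases before the start, and 2 matches to the RBPJ core, the first of them read on the other strand (TTCCCA as printed). CAGCTG lay in 3 of 8 windows of the members (Dll1, Jag1 and Lfng) and in 13% of 32851 windows of all genes, and TGGGAA in 1 of 8 (Lfng) against 21.6% of all. These matches are letters in a window and were not tested for binding, and 2 members had no window in the table.

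Among the ligands, Dll1 was highest in secretory progenitor-like and Goblet-like cells. It was at 79.5 to 158 CPM over the 6 libraries in secretory progenitor-like cells, 76.2 to 126 CPM in Goblet-like, 25.6 to 54.7 CPM in Paneth-like and 20.9 to 35.3 CPM in EEC-like cells, against 10.6 to 19.0 CPM in ISC-like and 8.78 to 14.5 CPM in enterocyte-like cells. The ranges of progenitor-like and Goblet-like cells overlapped, as did those of Paneth-like and EEC-like cells and those of ISC-like and enterocyte-like cells, while every progenitor-like and Goblet-like value was above every Paneth-like value. Tuft-like cells, at 19.4 to 45.4 CPM, overlapped Paneth-like and EEC-like cells. Dll4, the other Delta ligand, had a flatter profile, at 10.4 to 18.9 CPM in progenitor-like, 13.4 to 17.0 CPM in Paneth-like, 17.9 to 23.0 CPM in Goblet-like and 14.4 to 21.7 CPM in EEC-like cells, and at most 1.76 CPM in ISC-like cells. Its Goblet-like values were all above its Paneth-like values, and every other pair of these 4 ranges overlapped. Jag1, a ligand of the Serrate family, was at 3.01 to 5.09 CPM in ISC-like, 2.60 to 7.04 CPM in progenitor-like, 3.87 to 5.14 CPM in Paneth-like, 3.14 to 6.27 CPM in Goblet-like and 5.63 to 7.85 CPM in EEC-like cells. Its EEC-like values were above all ISC-like and Paneth-like values, and the other ranges overlapped.

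**Figure D1:**
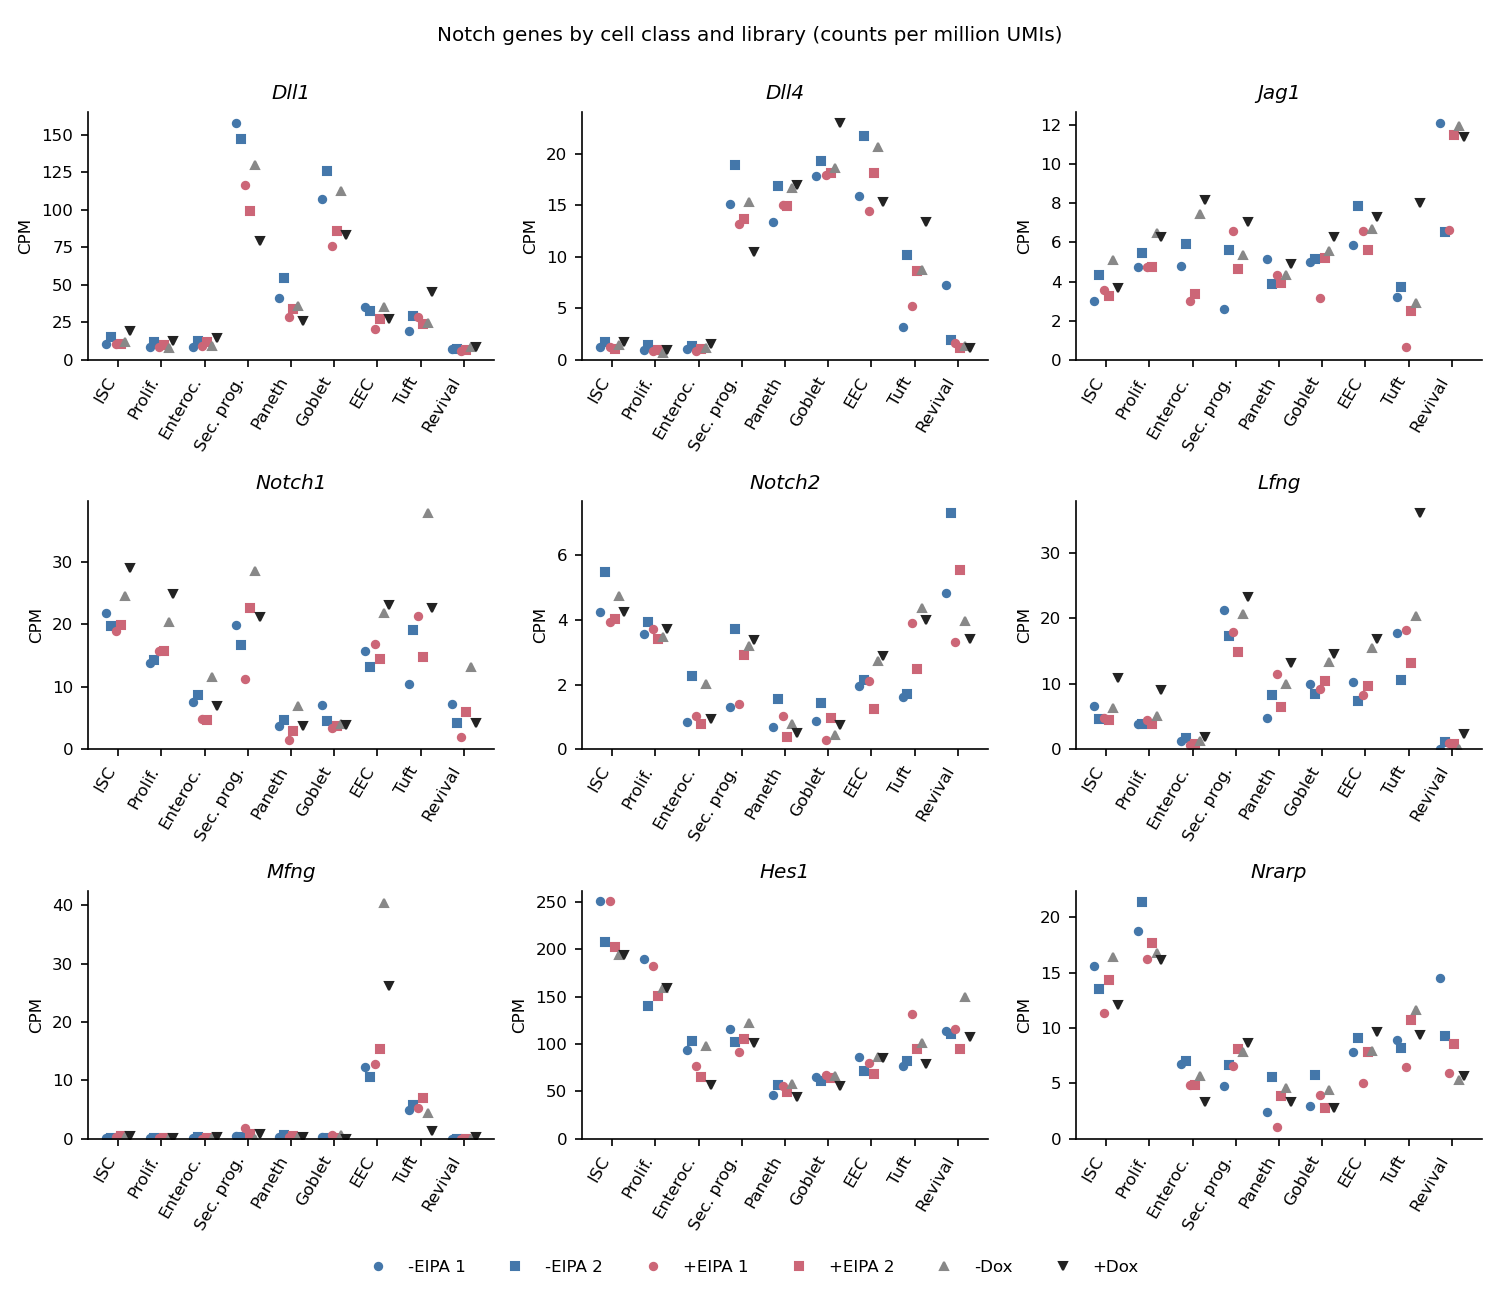
Level of each of the 9 genes (vertical axis, CPM, starting at 0, scales differ) in 9 cell classes (horizontal axis), 1 point per library. Dll1 stands highest in progenitor-like and Goblet-like cells, Hes1 in ISC-like cells and Mfng in EEC-like cells.

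Of the receptors, Notch1 was lowest in Paneth-like and Goblet-like cells among the 5 classes. Notch1 was at 18.9 to 29.1 CPM in ISC-like cells, 11.3 to 28.5 CPM in progenitor-like and 13.2 to 23.0 CPM in EEC-like cells, and at 1.53 to 6.91 CPM in Paneth-like and 3.42 to 7.03 CPM in Goblet-like cells, where every library was below every ISC-like value. Notch2 was low throughout, at 3.93 to 5.49 CPM in ISC-like cells and 0.285 to 1.43 CPM in Goblet-like cells, where 1 to 8 UMIs were counted per library, and no order among the secretory classes can be read from counts of that size. Lfng was at 14.8 to 23.2 CPM in progenitor-like cells and 0.711 to 1.82 CPM in enterocyte-like cells. Mfng was concentrated in EEC-like cells, which held 62.5% to 79.3% of its UMIs, at 10.7 to 40.4 CPM, and no library reached 2 CPM in the other 4 classes.

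Hes1, the repressor of Atoh1, was highest in ISC-like cells at 193 to 251 CPM, with 91.6 to 122 CPM in progenitor-like, 68.8 to 86.7 CPM in EEC-like, 56.0 to 67.1 CPM in Goblet-like and 43.6 to 57.3 CPM in Paneth-like cells. Each ISC-like value was above each value of those classes, and progenitor-like values were above all EEC-like, Goblet-like and Paneth-like values. Nrarp was at 11.4 to 16.4 CPM in ISC-like and 16.1 to 21.4 CPM in proliferating cells, and at 1.02 to 5.58 CPM in Paneth-like and 2.75 to 5.71 CPM in Goblet-like cells. Classes were formed from the same cells, so these orders are a description with no test.

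Dll1 was lower with EIPA in each class of the secretory lineage. In secretory progenitor-like cells it was at 158 and 148 CPM in -EIPA and 116 and 99.5 CPM in +EIPA, both +EIPA libraries below both -EIPA libraries (log2 fold change -0.45, SE 0.13, n = 2 libraries per group). edgeR's quasi-likelihood test gave an unadjusted p of 0.00577 and a Benjamini-Hochberg adjusted p of 0.723 over 9856 genes, past no threshold. With the experiment as a block, since the study's source data pair replicate 1 with replicate 1 and replicate 2 with replicate 2, edgeR gave an adjusted p of 0.000824. The blocked log2 fold change was -0.46, so the call, and not the size, depended on the pairing.

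Dll1 was also lower in the other classes of the lineage. In Goblet-like cells Dll1 was at 108 and 126 CPM in -EIPA and 76.2 and 85.8 CPM in +EIPA (log2 fold change -0.48, SE 0.15), again with groups that did not overlap, and edgeR's adjusted p was 0.450 without and 0.00232 with the block. In Paneth-like cells the values were 41.1 and 54.7 CPM in -EIPA and 28.9 and 33.7 CPM in +EIPA (log2 fold change -0.48, SE 0.21), with an edgeR adjusted p of 1.00 without and 0.0306 with the block. EEC-like cells had 35.0 and 32.7 CPM in -EIPA and 20.9 and 27.2 CPM in +EIPA (log2 fold change -0.44, SE 0.16), and here edgeR's adjusted p stayed above 0.05 in both fits, at 1.00 and 0.114. The groups did not overlap in any of these 3 classes. The blocked fit leaves 1 residual degree of freedom, so it draws most of its error estimate from the trend over all genes. For a single value 2 libraries against 2 cannot give an exact two-sided permutation p below 0.333.

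**Figure D2:**
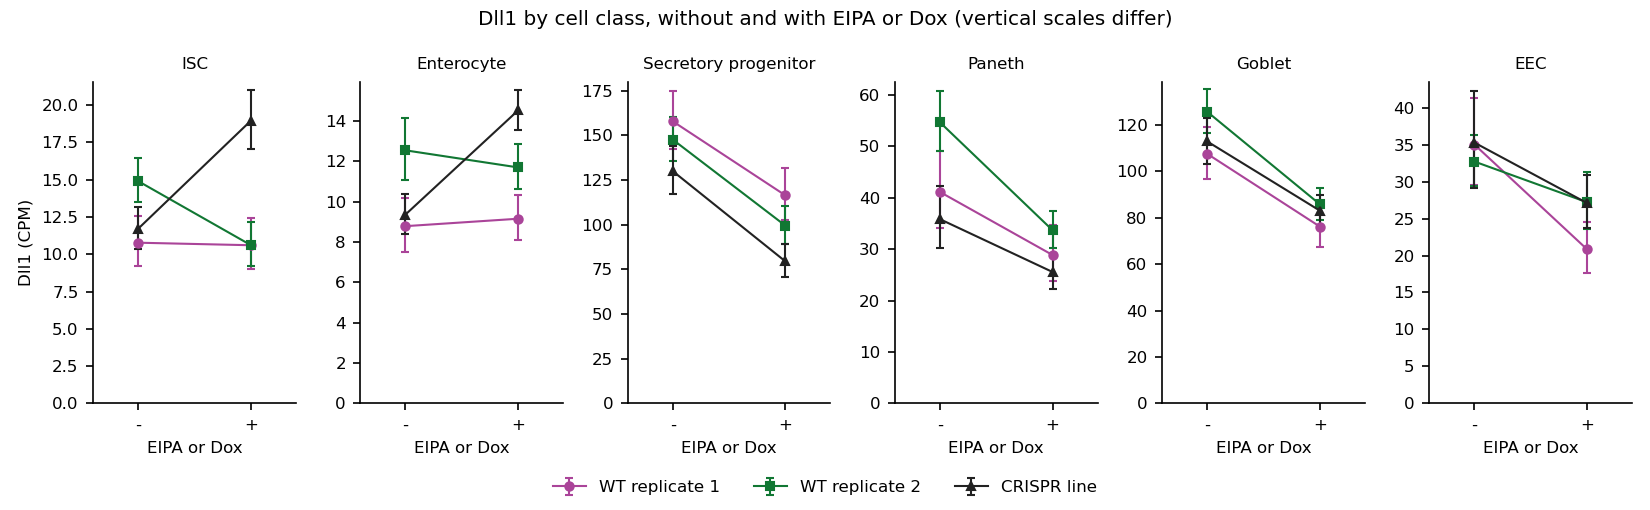
Dll1 (vertical axis, CPM, scales differ) in 6 cell classes without (-) and with (+) EIPA in WT replicates 1 and 2 and without and with Dox in the CRISPR line, with exact Poisson 95% intervals that cover counting error only. The lines fall in secretory progenitor, Paneth, Goblet and EEC panels, and in the ISC and enterocyte panels the Dox line rises.

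Outside that lineage the values were small and mixed. ISC-like cells held 10.8 and 14.9 CPM in -EIPA and 10.6 and 10.6 CPM in +EIPA (log2 fold change -0.22, SE 0.18, edgeR adjusted p = 1.00), groups that did not overlap although -EIPA replicate 1 and both +EIPA libraries were within 1 CPM of each other, and without -EIPA replicate 2 the log2 fold change was 0.054. Enterocyte-like cells held 8.78 and 12.5 CPM in -EIPA and 9.15 and 11.7 CPM in +EIPA, which overlap. Over all cells Dll1 was at 16.5 and 21.8 CPM in -EIPA and 14.8 and 18.0 CPM in +EIPA (log2 fold change -0.14, SE 0.19), also overlapping.

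Separated groups are common in these data, so the counts of members are read against all genes tested. In secretory progenitor-like cells 2 of 7 members tested (Dll1 and Dll4) had both +EIPA libraries below both -EIPA libraries, against 22.1% of 9856 genes. The counts were 2 of 7 (Dll1 and Notch1) in Paneth-like cells against 23.3% of all genes tested there, 2 of 7 (Dll1 and Notch1) in Goblet-like cells against 23.4%, 2 of 9 (Dll1 and Nrarp) in EEC-like cells against 19.4%, 3 of 8 (Dll1, Dll4 and Notch2) in ISC-like cells against 27.4%, and 3 of 9 (Notch1, Notch2 and Nrarp) over all cells against 33.6%. These shares are near the background and are no result about the members as a list.

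Dll1 was also compared cluster by cluster. The secretory cells were split again into sub-clusters, 16 of which had at least 20 cells in each WT library. Both +EIPA libraries were below both -EIPA libraries in 13 of the 16 and above them in 0, and the remaining 3 overlapped (S2 and S10, both Goblet-like, and S9, unnamed). Of the 11 sub-clusters in a named class 9 were lower, and of the 5 unnamed ones 4 were lower (S0, S5, S6 and S11). Among the unnamed sub-clusters, S5 was led by mitochondrial genes, and in S0, S6, S9 and S11 42.1% to 87.8% of the cells were called doublets. Of 4961 genes at a mean of 20 CPM or more, 0.383% were lower in as many sub-clusters or more, and the median gene in 4. Sub-clusters share their libraries and are not replicates. In the 18 other clusters, which include the EEC-like and tuft-like ones, Dll1 was lower in 4 and higher in 1.

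**Figure D3:**
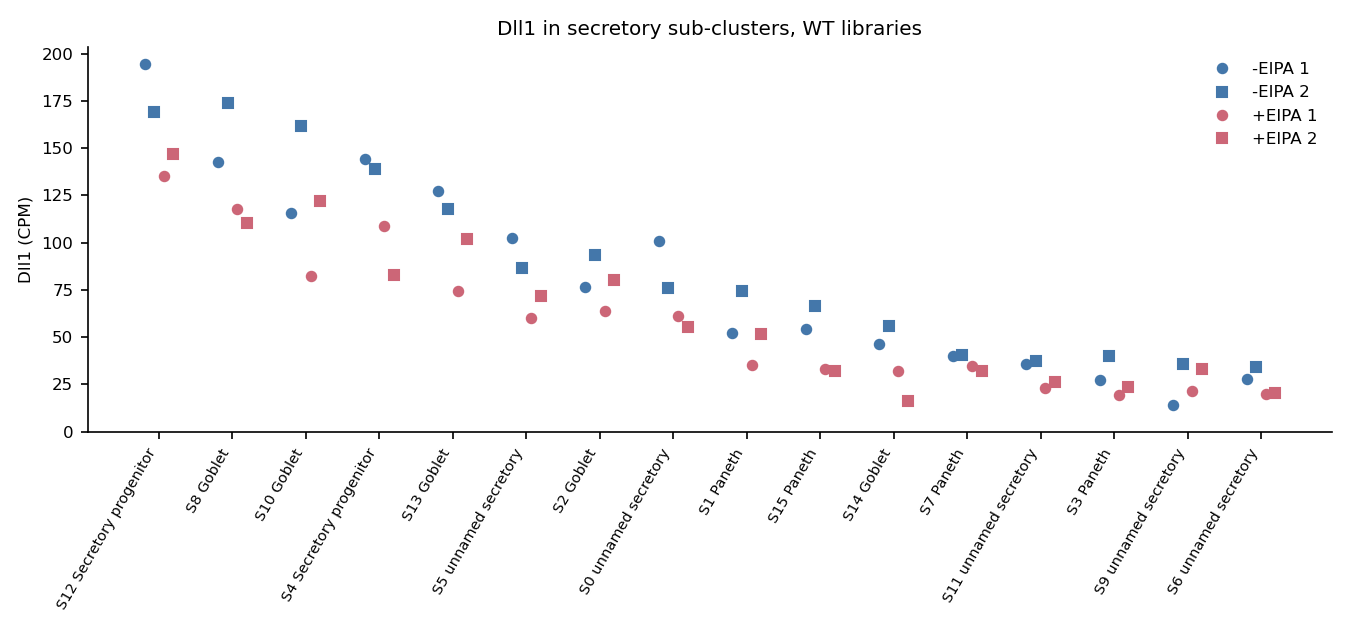
Dll1 (vertical axis, CPM) in the 16 secretory sub-clusters with at least 20 cells in each WT library, ordered by mean level, 1 point per WT library. The red +EIPA points lie below the blue -EIPA points in 13 sub-clusters.

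The make-up of a class moved with EIPA in places. S8, the Goblet-like sub-cluster with the highest Dll1, was 28.4% and 23.1% of Goblet-like cells in -EIPA and 19.6% and 16.9% in +EIPA. With every sub-cluster given equal weight, Dll1 in Goblet-like cells was 102 and 121 CPM in -EIPA and 74.1 and 86.1 CPM in +EIPA, still without overlap. The same means were 169 and 154 CPM against 122 and 115 CPM in progenitor-like, 39.7 and 51.5 CPM against 29.8 and 35.9 CPM in Paneth-like (3 of its 4 sub-clusters, since S15, 10.9% to 13.9% of WT Paneth-like cells, had 15 cells in +Dox), and 33.0 and 30.6 CPM against 20.03 and 25.7 CPM in EEC-like cells. In progenitor-like cells Sox4, a marker of that class, was at 863 and 916 CPM in -EIPA and 666 and 674 CPM in +EIPA, and Lyz1, a Paneth gene, at 877 and 1206 CPM and at 1371 and 2005 CPM. Their part in the Dll1 difference was not tested.

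The class difference itself was tested in edgeR, with the library as a block, on the 3 secretory classes pooled. Dll1 was there at 98.6 and 102 CPM in -EIPA and 65.8 and 62.7 CPM in +EIPA (log2 fold change -0.54, SE 0.11, edgeR adjusted p = 0.273 without and 2.06e-05 with the experiment as a block). The make-up of the pool moved too. Progenitor-like cells, with the highest mean Dll1 of the 3, were 1.81% and 1.89% of all cells in -EIPA and 1.57% and 1.55% in +EIPA. Paneth-like cells, with the lowest, were 2.40% and 3.29% in -EIPA and 3.02% and 5.36% in +EIPA. The part of this shift in the pooled values was not tested. Against enterocyte-like cells the EIPA effect on Dll1 was more negative by 0.73 (log2, SE 0.16, adjusted p = 0.0290), and 1.65% of 12959 genes were called. Dll1 in enterocyte-like cells is at the level used as background (a UMI in 1.61% to 2.78% of thinned cells), so the test compares the secretory classes with that background. With library-size scaling, the scale of the printed CPM, the difference was -0.62 and not called (adjusted p = 0.129). It was also lost without +EIPA replicate 1 (0.203) and without +EIPA replicate 2 (0.744). Against ISC-like cells the difference was -0.31 (SE 0.14, adjusted p = 0.425), with 0.193% of genes called, and against EEC-like cells -0.12 (SE 0.13, adjusted p = 0.886), with 0.194% called, so neither a difference nor a likeness was shown. The difference from EEC-like cells turned to 0.16 with doublets removed and to 0.065 without +EIPA replicate 2. That from ISC-like cells ranged from -0.54 to -0.14 with 1 WT library left out.

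With Dox, Dll1 was lower in the same 4 classes. It was at 130.0 CPM in -Dox and 79.5 CPM in +Dox in progenitor-like cells, a ratio of 0.612, 95% interval 0.524 to 0.714, and at 113 CPM in -Dox and 83.1 CPM in +Dox in Goblet-like cells, a ratio of 0.736, 95% interval 0.655 to 0.828. Paneth-like cells had 35.8 CPM in -Dox and 25.6 CPM in +Dox (ratio 0.713, 95% interval 0.572 to 0.891) and EEC-like cells 35.3 CPM in -Dox and 27.1 CPM in +Dox (ratio 0.768, 95% interval 0.611 to 0.970). Intervals are exact and cover counting error between 2 libraries only. The median log2 ratio of all genes at 10 CPM or more was -0.25 in Paneth-like cells, against -0.49 for Dll1, and it lies inside the interval of Dll1, so Dll1 is not set apart from the typical gene there. That median was -0.08 in progenitor-like, -0.11 in Goblet-like and -0.02 in EEC-like cells, where Dll1 had -0.71, -0.44 and -0.38.

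That direction did not hold in every class or setting. Dll1 was higher with Dox in ISC-like cells, at 11.7 CPM in -Dox and 19.0 CPM in +Dox (ratio 1.62, 95% interval 1.38 to 1.90), and in enterocyte-like cells, at 9.35 CPM in -Dox and 14.5 CPM in +Dox (ratio 1.55, 95% interval 1.37 to 1.76). Enterocyte-like cells are the background class for Dll1, so the value there is not read as a change in expression. The background level was thus itself higher in the +Dox library, and its part in the ISC-like value was not tested. Over all cells Dll1 was at 15.5 CPM in -Dox and 20.7 CPM in +Dox, a sum that also moves with the shares of the classes. When the libraries were clustered without correction for library, the ratio in progenitor-like cells turned to 1.07, and that class then held 102 +Dox cells. Of 15 secretory sub-clusters compared, Dll1 was lower with Dox in 13 and higher in 2, a count that 25.2% of 4961 genes at a mean of 20 CPM or more reached or passed, with a median gene of 10, so this count does not set Dll1 apart. Of the 18 other clusters, EEC-like ones included, Dll1 was higher in 13. In +Dox progenitor-like cells Lyz1 was at 5775 CPM against 994 CPM in -Dox, and Sox4 at 496 against 781 CPM, and their part was not tested.

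Read against all genes at a mean of 10 CPM or more in the pair, Dll1 was at least 1.5-fold lower in progenitor-like cells (7.53% of genes passed that fold, either way), and Mfng in EEC-like cells (4.24%). In ISC-like cells (2.35%) Dll1 was at least 1.5-fold higher. Of the 4 members at that level in each, none did so in Paneth-like cells (11.3% of genes), Goblet-like cells (4.77%) or over all cells (6.24%). Members below that level can pass the fold, as Dll4 (ratio 1.62), Lfng (1.56) and Mfng (1.58) did over all cells and Notch1 (0.547) in Paneth-like cells. EEC-like cells were 2.31% of -Dox and 5.86% of +Dox cells, Goblet-like 2.90% and 4.96%, and Paneth-like 2.22% and 4.33%. Within classes the Dll4 ratio was 1.06 in pooled secretory, 0.742 in EEC-like, 1.20 in ISC-like and 1.37 in enterocyte-like cells. Mfng was at 0.646 in EEC-like cells, and Lfng at 1.12 in pooled secretory and 1.72 in ISC-like cells. The part of the class shares in the all-cell ratios was not tested. The -Dox and +Dox libraries differed in depth, with medians of 11952 and 17020 UMIs per cell.

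The share of cells with a Dll1 UMI was compared after each cell was thinned to 2000 UMIs, which left out 18 to 99 cells per library. In progenitor-like cells it was 30.7% and 26.7% in -EIPA, 16.4% and 22.6% in +EIPA, 21.5% in -Dox and 18.7% in +Dox, so the WT groups did not overlap. Their exact 95% intervals reached from 22.1% to 37.1% in -EIPA and from 11.7% to 28.7% in +EIPA, which overlap. Goblet-like cells gave 18.8% and 23.6% in -EIPA and 15.4% and 18.0% in +EIPA, and Paneth-like cells 7.62% and 10.2% against 8.02% and 7.20%, of which only the Paneth-like groups overlap. Enterocyte-like cells, which should lack Dll1, gave 1.61% to 2.78%, and ISC-like cells 1.73% to 3.93%. The ISC-like share was above the enterocyte-like share of the same library in 5 of 6 libraries, and whether it holds more than background was not tested. Median depths per library were 8780 to 16122 UMIs in progenitor-like, 10177 to 14395 in ISC-like and 10332 to 16855.5 in enterocyte-like cells, where the share without thinning was 8.77% to 22.6%. Without thinning the share in progenitor-like cells was 75.0% and 72.5% in -EIPA and 69.1% and 71.5% in +EIPA.

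EIPA effects on the members were tested in 5 classes and over all cells. Without the block edgeR called 0 of 8 members in ISC-like cells (0% of 11933 genes), 0 of 7 in progenitor-like cells (0.0406% of all), 0 of 7 in Paneth-like (0.00958%), 0 of 7 in Goblet-like (0.295%), 0 of 9 in EEC-like cells (0.0811%) and 0 of 9 over all cells (0% of 15890). At an unadjusted p under 0.05 the counts were 0 in ISC-like cells and 1 in each other class, namely Dll1 in the 4 secretory classes and Nrarp over all cells. Of all genes, 423 of 11933 in ISC-like, 529 of 9856 in progenitor-like, 287 of 10437 in Paneth-like, 723 of 10518 in Goblet-like and 356 of 12328 in EEC-like cells and 1601 of 15890 over all cells passed that unadjusted threshold, so 1 of 9 members over all cells is near the background. DESeq2 called 0 members in each of these comparisons. In the pooled secretory classes edgeR without the block called Dll1 only when no filter on low counts was used (adjusted p = 0.0121, with 1.46% of 17822 genes called, against 0% of 11826 with the filter). The median log2 fold change of the members tested was -0.09 in progenitor-like, 0.06 in Paneth-like, -0.15 in Goblet-like, -0.17 in EEC-like, -0.14 in ISC-like cells and -0.04 over all cells, against medians of -0.0038 to 0.0051 over all genes. TMM scaling itself places the median of all genes near 0. Medians of 7 to 9 genes, given with no spread, are no result about the members as a list. With the experiment as a block, edgeR called Dll1 in progenitor-like (1.75% of all genes), Paneth-like (1.32%) and Goblet-like cells (3.08%), no member in EEC-like (1.97%) or ISC-like cells (6.55%), and Nrarp over all cells (5.28%).

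**Figure D4:**
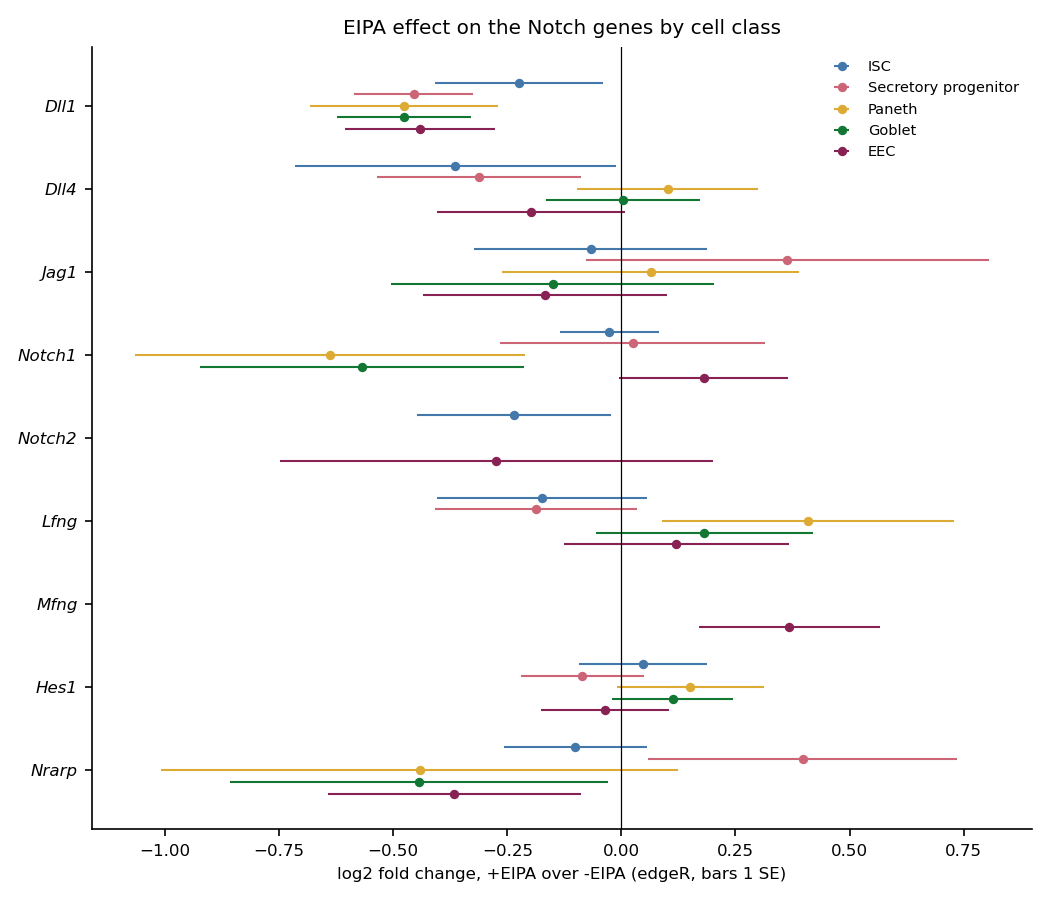
Log2 fold change of each gene between +EIPA and -EIPA (horizontal axis, edgeR, bars 1 SE) in 5 cell classes, for the genes with counts enough to be tested. Dll1 is left of 0 in all 5 classes, at -0.48 to -0.44 in secretory progenitor, Paneth, Goblet and EEC cells.

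Nrarp was at 13.9 and 15.3 CPM in -EIPA and 10.5 and 11.7 CPM in +EIPA over all cells, with groups that did not overlap (log2 fold change -0.31, SE 0.12, edgeR adjusted p = 0.493 without and 0.0493 with the block). Proliferating cells held most of its UMIs and gave 18.7 and 21.4 CPM in -EIPA and 16.2 and 17.6 CPM in +EIPA, and ISC-like cells gave 15.6 and 13.5 CPM in -EIPA and 11.4 and 14.3 CPM in +EIPA, which overlap. With Dox it was at 12.5 CPM in -Dox and 9.44 CPM in +Dox (ratio 0.752, 95% interval 0.712 to 0.795). In a sum over all cells, fewer cells of a class and less RNA per cell cannot be told apart. Within proliferating cells the ratio with Dox was 0.960 (95% interval 0.891 to 1.035). In ISC-like cells it was 0.733 (0.621 to 0.865) and in enterocyte-like cells 0.597 (0.488 to 0.730). It was above 1 in progenitor-like (1.10) and EEC-like cells (1.21), with intervals that hold 1. Proliferating cells were 36.8% and 33.9% of -EIPA cells, 30.6% and 29.9% of +EIPA cells, 36.2% of -Dox and 23.8% of +Dox cells. Within single clusters, Nrarp had both +EIPA libraries below both -EIPA libraries in 10 of the 18 other clusters, with 1 the other way. It did so in 6 of 16 secretory sub-clusters, with 0 the other way. The 18 other clusters include the EEC-like and tuft-like ones. Of 7488 genes at a mean of 10 CPM or more over all cells, 13.6% were lower in as many of the 18 clusters or more (median gene 5) and 20.8% in as many of the 16 sub-clusters or more (median gene 3), so neither count sets Nrarp far from other genes.

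Hes1 showed no difference past the spread of the libraries in ISC-like cells, at 251 and 207 CPM in -EIPA and 251 and 203 CPM in +EIPA (log2 fold change 0.05, SE 0.14), where libraries with the same replicate number lay closer to each other than libraries of the same treatment. Progenitor-like cells gave 115 and 102 CPM in -EIPA and 91.6 and 105 CPM in +EIPA (log2 fold change -0.09, SE 0.14), Paneth-like 46.3 and 56.4 CPM in -EIPA and 55.7 and 49.8 CPM in +EIPA and Goblet-like 64.7 and 60.5 CPM in -EIPA and 67.1 and 64.1 CPM in +EIPA, all with overlapping groups. In enterocyte-like cells, where no test of EIPA alone was run, Hes1 was at 93.7 and 103 CPM in -EIPA and 77.2 and 65.2 CPM in +EIPA and at 97.8 CPM in -Dox and 56.3 CPM in +Dox, and the WT groups did not overlap. Each other member also had a lower +EIPA mean there, at 50.7% (Mfng) to 97.8% (Dll1) of the -EIPA mean, beside 72.4% for Hes1. With Dox, Notch1 (ratio 0.603) and Nrarp (0.597) were lower there too, and Dll1 (1.55) and Jag1 (1.10) were not. The values are thus not read as particular to Hes1, and the share of all genes is not given for that class. Between the classes the edgeR test of Hes1 against enterocyte-like cells gave an adjusted p of 0.326.

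For the other ligands and the receptors no difference passed the test, although some groups did not overlap. Dll4 in progenitor-like cells was at 15.1 and 18.9 CPM in -EIPA and 13.1 and 13.6 CPM in +EIPA (log2 fold change -0.31, SE 0.22, edgeR adjusted p = 0.993), a difference that turned to 0.051 without correction for library, and in Goblet-like cells at 17.9 and 19.3 CPM in -EIPA and 18.0 and 18.2 CPM in +EIPA. Notch1 in Goblet-like cells was at 7.03 and 4.46 CPM in -EIPA and 3.42 and 3.71 CPM in +EIPA from 12 to 27 UMIs per library (log2 fold change -0.57, SE 0.36, adjusted p = 0.805), and in ISC-like cells at 21.7 and 19.7 CPM in -EIPA and 18.9 and 19.9 CPM in +EIPA, which overlap. Mfng in EEC-like cells was at 12.2 and 10.7 CPM in -EIPA and 12.9 and 15.4 CPM in +EIPA (log2 fold change 0.37, SE 0.20, adjusted p = 1.00), with both +EIPA libraries above both -EIPA libraries, as 9.31% of all genes tested there were. Lfng in progenitor-like cells was at 21.2 and 17.3 CPM in -EIPA and 17.8 and 14.8 CPM in +EIPA and Jag1 at 2.60 and 5.59 CPM in -EIPA and 6.57 and 4.64 CPM in +EIPA, both overlapping.

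In EEC-like cells the 2 organoid lines differed in Mfng more than either treatment did. EEC-like cells of -Dox held 40.4 CPM against a mean of 11.4 CPM in the -EIPA libraries, a ratio of 3.53 with no replicate of the line, and +Dox held 26.1 CPM. The EEC-like class also had another make-up there, since its Neurog3-high cluster was 66.8% and 68.6% of EEC-like cells in -Dox and +Dox and 40.0% to 40.9% in the WT libraries, and its part in the Mfng level was not tested. Lfng was higher with Dox in ISC-like cells, at 6.33 CPM in -Dox and 10.9 CPM in +Dox (ratio 1.72, 95% interval 1.38 to 2.13), and Hes1 in Paneth-like cells was at 57.3 CPM in -Dox and 43.6 CPM in +Dox (ratio 0.760, 95% interval 0.641 to 0.903), an interval that holds the shift of the median gene of that class given above. Without correction for library the Lfng ratio was 1.14.

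Ligand and target were set side by side in the same cells, thinned to 2000 UMIs. Over all cells, Hes1 was lower in cells with a Dll1 or Dll4 UMI than in those without in 6 of 6 libraries, for example at 103 against 166 CPM in -EIPA replicate 1 and 90.4 against 112 CPM in +Dox. The exact intervals were apart in 5 of 6 libraries and touched in +Dox. Of the 490 cells with a ligand UMI in -EIPA replicate 1, 190 were in the pooled secretory classes. A UMI does not show that a cell expresses the ligand, since 1.61% to 2.78% of thinned enterocyte-like cells held one of Dll1, so the contrast over all cells is a description of cells with a UMI. Within the secretory classes pooled the values were 63.2 and 77.3 CPM in -EIPA replicate 1, 61.6 and 60.3 CPM in -EIPA replicate 2, 38.9 and 67.1 CPM in +EIPA replicate 1 and 57.1 and 54.7 CPM in +EIPA replicate 2, with intervals that overlap in each library, as they did in -Dox (63.7 and 72.9 CPM) and +Dox (49.5 and 58.3 CPM). In secretory progenitor-like cells alone, Hes1 was lower in cells with a ligand UMI in 6 of 6 libraries, from 47.9 against 171 CPM in -EIPA replicate 1, where the intervals were apart, to 89.1 against 90.2 CPM in -EIPA replicate 2. There were 40 to 101 such cells with a ligand UMI per library, and the other 5 pairs of intervals overlapped. Of secretory cells with a Dll1 UMI, 12.8% to 21.5% also held an Atoh1 UMI, against 13.4% to 18.9% of those without.

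**Figure D5:**
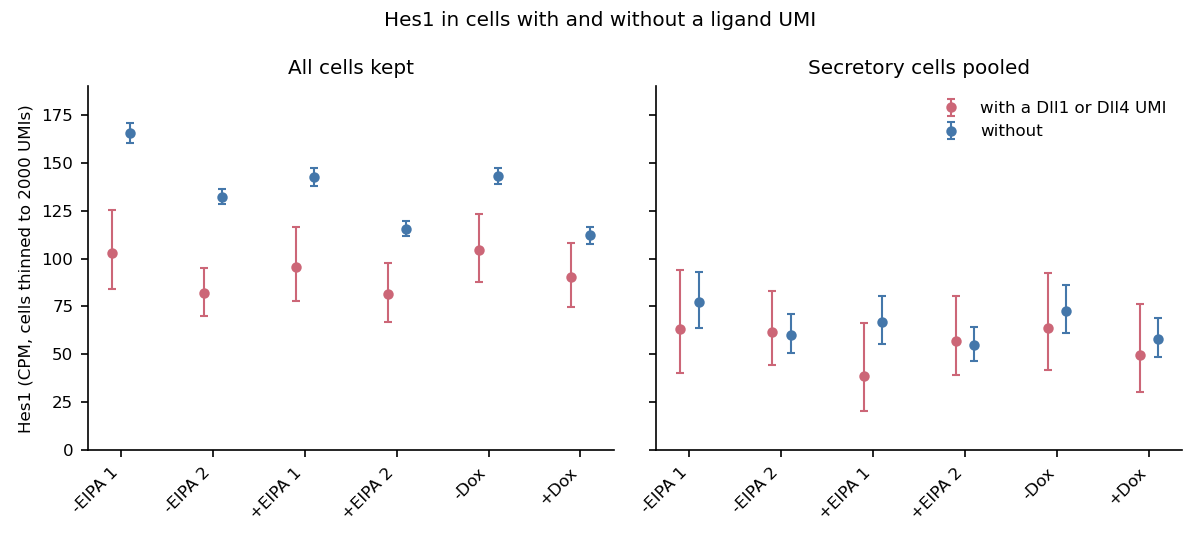
Hes1 (vertical axis, CPM of cells thinned to 2000 UMIs) in cells with and without a Dll1 or Dll4 UMI, per library, with exact Poisson 95% intervals that cover counting error only. The intervals are apart over all cells in 5 of 6 libraries and overlap in secretory cells.

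The genes most like each member were ranked by Pearson's r of log2(CPM + 10) over 54 points (9 classes in 6 libraries, which share depth and treatment) among 7451 genes. Dll1 was nearest to Rab15 (r = 0.893), Rasa4 (0.887) and Creb3l1 (0.875), and Dll4 to Cbfa2t3 (0.963), Tulp4 (0.928) and Btg2 (0.924). Hes1 was nearest to Impa2 (0.930), Mcm3 (0.911) and Dctd (0.908), Nrarp to Nrm (0.915), Notch1 to Kcnq1ot1 (0.900) and Mfng to Rogdi (0.946). Lfng was nearest to Chd6 (0.866), Notch2 to D030056L22Rik (0.866) and Jag1 to Zdhhc5 (0.770), the weakest likeness of the 9. Cbfa2t3 and Creb3l1 were among the markers used to name the secretory progenitor-like class.

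Of 41 other genes of the pathway, edgeR called 0 in every class, with 24 to 35 tested, and 0 to 2 had an unadjusted p under 0.05 (2 of 35 over all cells, beside the 1601 of 15890 genes given above, and 0 or 1 elsewhere), while DESeq2 called 1, Neurl1b over all cells, where it called 3.94% of 14876 genes. With the experiment as a block edgeR called Jag2, another ligand of the Serrate family, in ISC-like cells, where it was at 3.27 and 2.91 CPM in -EIPA and 4.78 and 4.78 CPM in +EIPA (log2 fold change 0.70, SE 0.20, adjusted p = 0.00888, against 1.00 without the block), where 6.55% of all genes were called with the block. It also called Jag2 in the pooled secretory classes (log2 fold change 0.69, adjusted p = 0.0435, against 0.585 without the block), where 4.08% of genes were called with the block. Among those at 10 CPM or more in progenitor-like cells, the extremes were Fbxw7, which marks the cut receptor for turnover (log2 fold change -0.38, SE 0.28, edgeR adjusted p = 0.993), and Dtx4 (0.35, SE 0.24, adjusted p = 0.993). Psen2, a part of the protease that cuts the receptor, had the highest value in Paneth-like cells (0.25), and the extremes were Numb, an inhibitor of Notch (-0.35), and Itch, a ubiquitin ligase (0.17), in Goblet-like cells. EEC-like cells had Neurl3 (-0.19) and Dtx4 (0.25), ISC-like cells had Adam10, a protease that also cuts the receptor, as the lowest (-0.15), and all cells had Maml3, a coactivator (-0.19), and Itch (0.17), and edgeR's adjusted p for these genes was at least 0.611.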

How the data were processed

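Droplet scRNA-seq (10x 3′) of 6 organoid libraries was used. The authors aligned reads to mouse mm10 (GRCm38) with Cell Ranger 6.1.2 and deposited raw UMI counts per gene and barcode, for the barcodes it called as cells, without normalization. The members and lists were chosen with earlier results of these data known. Kept were cells of 1000 or more genes whose mitochondrial share was under 20%. Pearson residuals (3000 genes, overdispersion 100), 45 principal components, a Harmony correction for library, 20 neighbours and Leiden clustering at a resolution of 0.8 gave 22 clusters, and secretory cells were clustered again into 17. Python was 3.11.15, with scanpy at 1.11.5, igraph at 0.11.9, scikit-learn at 1.9.0, scipy at 1.17.1 and numpy at 2.4.6. Names followed a rule that was fixed once the clusters had been seen: at least 2 markers of the type among the 20 leading genes, 3 raised and expressed at 10 CPM, and among the leading 10 no type with more. Clusters led by mitochondrial or rRNA genes, or with over 30% of cells among the doublet scores below, stayed unnamed. The unnamed clusters held 16.2% to 22.4% of cells, and unnamed secretory sub-clusters 3.18% to 6.71%. Doublets were kept, and an alternative removed the 10% of cells per library with the highest Scrublet scores, since the automatic threshold marked almost none in 2 libraries.

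Counts were summed per library and class and tested in R 4.3.3 with edgeR 4.0.16 (TMM, filterByExpr, quasi-likelihood F test, Benjamini-Hochberg, threshold 0.05), and an SE was taken as the absolute log2 fold change divided by the root of F. DESeq2 1.42.0 was an alternative, as were library-size scaling, no filter, each WT library left out, removed doublets, stricter limits on cells (1500 genes, 10% mitochondrial UMIs), no correction for library and the experiment as a block. The study's source data pair replicates by number, and the 2 libraries of a number deviated together, with r = 0.756 over all cells, 0.822 in ISC-like, 0.514 in progenitor-like, 0.649 in Paneth-like, 0.539 in Goblet-like and 0.570 in EEC-like cells. On simulated counts edgeR recovered 68% of 2-fold and 18% of 1.5-fold changes in progenitor-like cells (9856 genes). In ISC-like cells it recovered 69% and 9%, and for the difference between secretory and ISC-like cells 31% of 2-fold changes. The simulation of that difference used the same fixed dispersion for every gene and raised values only. The others took dispersions from the data and changed genes both ways, so its rate is not comparable with theirs. Genes with few UMIs were not among those changed, so these rates do not cover members at low counts. The test of the pooled secretory classes was added after the data were seen. Gene positions are those of GENCODE vM21. Intervals cover counting error only. The WT replicates are 2 separate preparations, so p-values of fits without a block measure the spread between those. Fits with the experiment or the library as a block take out the shared part of that spread, and their p-values measure what is left. The Dox pair was given no test. Named genes were the 9 members, and of 41 other pathway genes those called in a class and the largest change each way at 10 CPM or more. The targeted gene and 1 other pathway gene are not reported here. No per-sample column was left out. Figures were drawn with matplotlib 3.10.9.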

Additional observations from a re-analysis of the deposited data

Results flagged for a closer look

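Dll1 is listed here for a difference between classes under the same contrast. The EIPA effect was -0.73 (log2) in the pooled secretory classes relative to enterocyte-like cells, by the edgeR test of the difference itself (adjusted p = 0.0290, with TMM scaling). The levels were 98.6 and 102 CPM in -EIPA and 65.8 and 62.7 CPM in +EIPA in secretory cells and 8.78 and 12.5 CPM in -EIPA and 9.15 and 11.7 CPM in +EIPA in enterocyte-like cells. With library-size scaling, the scale of these CPM, the difference was -0.62 and the call was lost (adjusted p = 0.129), as it was without +EIPA replicate 1 (0.203) or 2 (0.744). Enterocyte-like cells are used as the background class for Dll1, with a UMI in 1.61% to 2.78% of cells thinned to 2000 UMIs, so their values are not read as expression. With Dox the ratio of +Dox over -Dox was 0.656 in the pooled secretory classes and 1.55 in enterocyte-like cells, and this difference was not tested, since each side is 1 library. The make-up of the pooled classes also differed with EIPA and with Dox, and its part in these values was not tested. Groups of 2 and 1 libraries are too small for a check of single libraries that stand apart.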

How the results depend on the processing

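The number of genes called and the call of Dll1 both depended on the processing, while the direction of Dll1 with EIPA in the secretory classes did not. With Dox its direction in progenitor-like cells did depend on it, with a ratio of 1.07 without correction for library. Dll1 was lower with EIPA in 11 of 11 alternatives in progenitor-like (log2 -0.58 to -0.31, adjusted p 0.000824 to 1.00), Paneth-like (-0.75 to -0.23, 0.0306 to 1.00), Goblet-like (-0.61 to -0.34, 0.00232 to 1.00), EEC-like (-0.69 to -0.26, 0.114 to 1.00) and pooled secretory cells (-0.64 to -0.49, 2.06e-05 to 0.990), and passed the threshold with the block, except in EEC-like cells, and without a filter in the pooled cells (adjusted p = 0.0121). In Paneth-like cells Dll1 was -0.23 without -EIPA replicate 2 and -0.28 without +EIPA replicate 1. Its difference from enterocyte-like cells stayed negative in 8 of 8 (-0.82 to -0.57, adjusted p 0.000943 to 0.744). Library-size scaling moved the median of all genes by -0.13 in Paneth-like and -0.11 in pooled secretory cells. Among members, values within 1 SE of 0 were given no direction. With 1 library left out, Dll1 in ISC-like cells ranged from -0.43 to 0.054 and Nrarp in Goblet-like cells from -0.78 to 0.20, both positive without -EIPA replicate 2. Nrarp then ranged from -2.06 to 0.42 in Paneth-like cells and from -0.44 to -0.20 over all cells. Notch1 in Goblet-like cells ranged from -0.90 to -0.26. Without correction for library Dll4 in progenitor-like cells turned to 0.051. The difference of Notch1 from EEC-like cells passed only without +EIPA replicate 2 (-1.14, adjusted p = 0.0399). The cause was not tested.

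Genes called numbered 0 over all cells in the reported fit, 586 by DESeq2, 198 without a filter and 839 with the block. They numbered 0, 23, 142 and 782 in ISC-like cells (2 without correction for library), and 4, 8, 86 and 172 in progenitor-like cells (2 without correction). In Paneth-like cells the numbers were 1, 8, 83 and 138, with 35 by library size, 5 without doublets, 4 with stricter limits and 11 without correction. Goblet-like cells gave 31, with 196 without a filter, 324 with the block, 13 without doublets and 5 without correction. EEC-like cells gave 10, with 33 by DESeq2, 3 by library size, 0 without a filter, 243 with the block, 0 without doublets and 5 with stricter limits. Pooled secretory cells gave 0, with 49 by DESeq2, 39 by library size, 260 without a filter, 483 with the block, 7 without doublets, 9 with stricter limits and 5 without correction. The difference from ISC-like cells gave 24, with 44 by library size, 208 without a filter and 704 without correction. From EEC-like cells it gave 25, with 62 and 14 without a filter and without correction, and from enterocyte-like cells 214, with 87 by library size, 610 without a filter, 478 without correction and 775 without doublets.

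Leaving out 1 WT library at a time gave 0 to 137 called genes over all cells, 0 to 1 in ISC-like, 0 to 75 in progenitor-like, 6 to 57 in Paneth-like, 28 to 135 in Goblet-like, 1 to 119 in EEC-like and 0 to 60 in pooled secretory cells, and for the differences 0 to 69 (ISC-like), 51 to 82 (EEC-like) and 3 to 2446 (enterocyte-like). The lone library was then assumed to vary like the other group. Beside Dll1, the block added Nrarp over all cells and changed no other call among the members.

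Without correction for library, Dll1 averaged 164 CPM in progenitor-like and Jag1 7.13 CPM in revival-like cells, and +Dox over -Dox ratios reversed for Dll1 in progenitor-like cells (1.07) and for Jag1 (1.07) and Notch1 (0.886) in ISC-like cells. In ISC-like cells they moved to 1.36 for Dll1, 0.615 for Notch2, 1.14 for Lfng and 0.824 for Hes1, and in progenitor-like cells to 0.465 for Hes1 and 0.550 for Nrarp. Removing doublets and stricter limits moved none of these levels or ratios beyond their spread. With doublets removed, the EIPA log2 fold change of Dll1 was -0.31 in progenitor-like and -0.69 in EEC-like cells. With doublets kept it was -0.45 and -0.44. In S4, a progenitor-like sub-cluster, 19.2% of cells were called doublets.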

Other observations

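Tuft-like and revival-like cells are outside the comparisons above. In tuft-like cells Lfng was at 10.5 to 36.0 CPM and Notch1 at 10.5 to 37.9 CPM over the 6 libraries, and Dll1 at 19.4 and 29.2 CPM in -EIPA and 28.5 and 23.9 CPM in +EIPA and 24.8 CPM in -Dox and 45.4 CPM in +Dox, with WT groups that overlap. Mfng, low outside EEC-like cells, was at 1.33 to 7.002 CPM there. In revival-like cells Jag1 was at 6.55 to 12.1 CPM, above its range in ISC-like cells in each library, and Lfng was at 0 to 2.28 CPM. Tuft-like cells were 0.403% to 2.12% of a library and revival-like cells 0.190% to 3.06%, so these levels rest on few UMIs.

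Markers of other cell types were low but not absent over all cells. The 4 immune markers, of which Lyz2 is also on the Paneth list, summed to 0.331 to 0.883 CPM and 3 endothelial markers to 0.262 to 0.460 CPM. The 4 mesenchymal markers summed to 6.38 to 12.7 CPM in WT and to 0.155 and 0.397 CPM in the CRISPR libraries. Vim, which is on that list, was also among the leading genes of an EEC-like cluster. Its part in these sums was not tested, so they do not show mesenchymal cells.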
